A study of Rattus norvegicus with 22 samples.

Results

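The growth hormone and IGF axis was followed in rat liver through 10 genes, chosen by name and each represented on the array by its only probe set with a single gene symbol, out of 18166 genes measured in all. The 10 genes are the growth hormone receptor Ghr, its transcription factor Stat5b, the feedback inhibitors Socs2 and Cish, the hormone gene Igf1, the acid-labile subunit Igfals, and the binding proteins Igfbp1, Igfbp2, Igfbp3 and Igfbp4. All 10 were measured on all 22 arrays, 1 array per animal, and no filter on low values was applied.

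The rats were female Crl:CD(SD) animals, an outbred Sprague-Dawley stock, labelled as 12 weeks old and stated in the protocol to be 10 to 14 weeks old at dosing. A group of 10 rats received GSK932121A, an inhibitor of complex III of the mitochondrial respiratory chain, once into the peritoneal cavity at 50 mg/kg, and their livers were labelled as taken at 5 hours. The other 12 rats received the vehicle alone (0 mg/kg), for which the labels give no time. Both groups carried an implanted microchip, had free access to food and water and were dosed at 10 mL/kg, and the submitters left out treated animals with low plasma exposure, so the treated group holds the exposed animals and not all those dosed.

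Growth hormone from the pituitary binds its receptor on hepatocytes and activates the kinase JAK2, which phosphorylates STAT5. STAT5 then switches on Igf1, Igfals and the inhibitors Socs2 and Cish, which in turn dampen receptor signalling. Secreted IGF-1 circulates mostly in a large complex with the acid-labile subunit and IGFBP-3, while IGFBP-1 is a short-lived binding protein whose gene is repressed by insulin and induced by fasting, glucocorticoids and cell stress.

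In livers exposed to GSK932121A, 2 of the binding protein genes and the acid-labile subunit gene passed, and no difference was detected for the hormone gene itself. Igfbp1 rose 3.57-fold and Igfbp2 rose 1.41-fold, while Igfals fell 1.27-fold. The Igfbp2 call was fragile: it ended with the Welch and Wilcoxon tests and when any of 15 single arrays was left out. The other 7 genes did not pass: Ghr, Stat5b, Socs2, Cish, Igf1, Igfbp3 and Igfbp4. Of these, Ghr and Igfbp4 lay near the threshold (limma, adjusted p = 0.0828 and 0.0837). So 3 of 10 members passed at an adjusted p under 0.05 (limma, adjusted over all genes), 2 higher and 1 lower. The share over all genes tested was 12.4%, with 5.31% higher and 7.05% lower. Brighter genes, tested alone, passed more often: 2385 of the 10410 whose log2 mean reached 5, which include all 10 members. Among the 4199 genes whose mean reached 7, 1217 passed. In these runs 5 and 4 members passed, and the second run did not include Igfbp2, whose mean lay under 7. The count of members is therefore not read as an excess. No member had fully separate groups, a pattern shown by 0.738% of all genes. Since whole liver was measured, fewer cells of a type and less RNA per cell cannot be told apart.

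**Figure D1:**
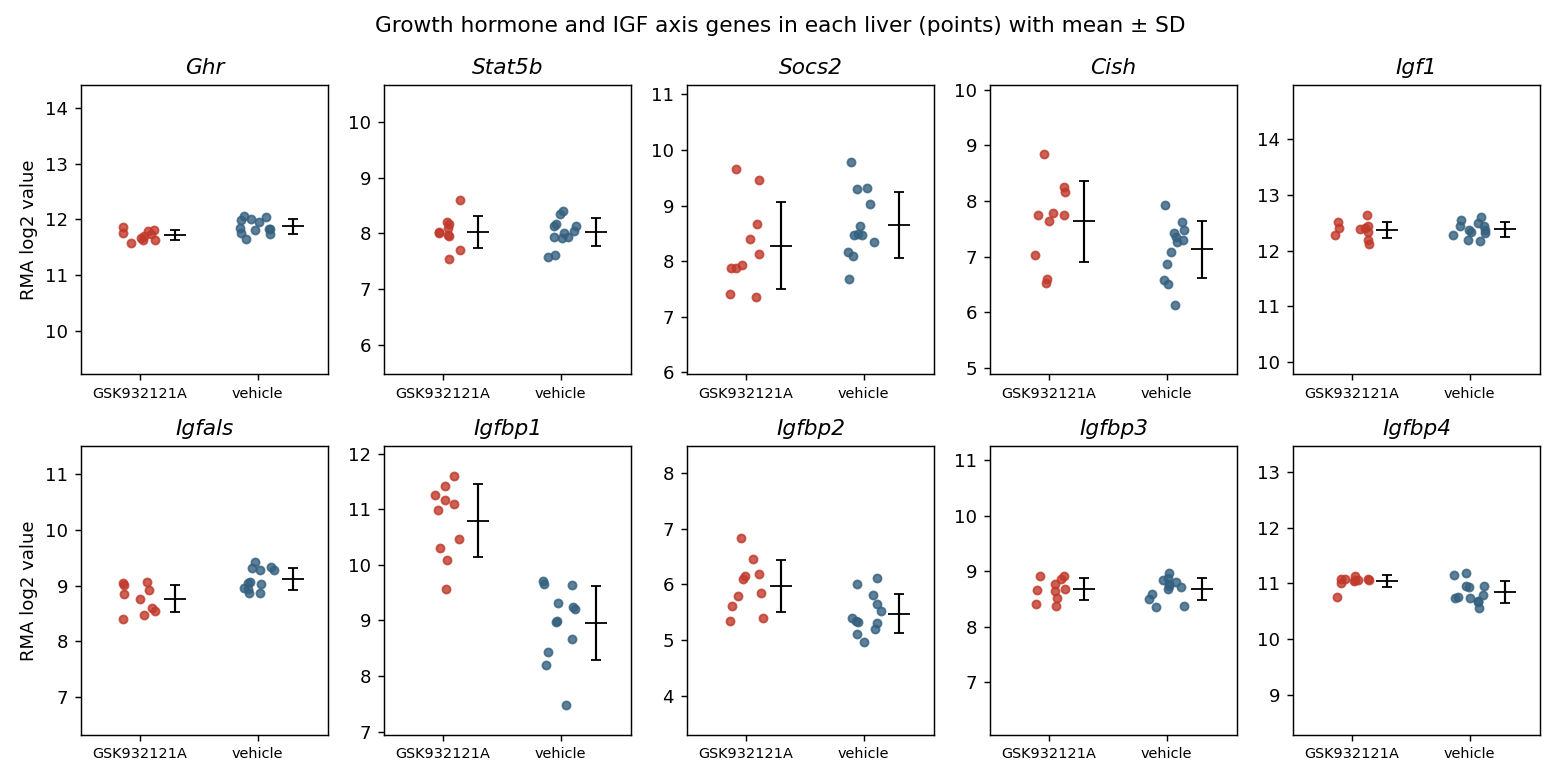
RMA log2 values of the 10 genes in each liver, GSK932121A (red, 10 livers) left of vehicle (blue, 12 livers), with the group mean and SD beside the points. All panels span the same number of log2 units, so the spreads can be compared: Igfbp1 sits higher in 9 of 10 treated livers than in any vehicle liver, Socs2 and Cish scatter widely in both groups, and Ghr and Igf1 are tight.

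The median log2 value of an array was 4.73 to 4.85, a closeness that RMA itself sets. The array weights that limma estimated ran from 0.774 to 1.27 in treated and from 0.785 to 1.5 in vehicle livers, where a lower weight marks a noisier array. Pearson r across genes, which do not act as replicates, was 0.971 to 0.990 for pairs of arrays. The mean log2 value of 7 measured hepatocyte markers, including Alb, was 11.68 to 11.79 in treated livers and 11.63 to 11.80 in vehicle livers. The hepatocyte marker Cps1 (1.25-fold, the only call of the 7), the endothelial marker Lyve1 (1.16-fold) and the macrophage marker Cd163 (1.28-fold) were higher and passed. Lyve1 was the only call among 4 measured sinusoidal endothelial markers (list mean 7.74 to 8.10 in treated and 7.75 to 8.07 in vehicle livers), and Cd163 was the only call among 8 Kupffer cell markers (7.20 to 7.68 and 7.13 to 7.74). None of 9 stellate cell (6.81 to 7.62 and 6.83 to 7.33), 6 cholangiocyte (4.39 to 5.18 and 4.36 to 4.90) or 7 leukocyte markers (4.85 to 5.21 and 4.80 to 5.11) passed in limma, and their part in the results was not tested.

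Igfbp1 showed the largest difference among the 10 genes. Its log2 value had a lowest, median and highest value of 9.57, 11.04 and 11.60 in the treated livers, against 7.49, 9.09 and 9.71 in the vehicle livers. The groups overlapped through 1 treated liver, replicate 24, which at 9.57 lay below the 3 highest vehicle livers. Treated livers averaged 10.79 ± 0.65 and vehicle livers 8.96 ± 0.67 (SD, n = 10 and 12), a log2 difference of 1.84 ± 0.25 (SE; 95% confidence interval 1.32 to 2.36; limma, adjusted p = 1.59e-05). Among the vehicle livers alone the gene already spanned 4.67-fold, and the treated livers spanned 4.08-fold.

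The region around the start of Igfbp1 is shown because the gene carries the largest change and because its promoter is a textbook site of FoxO factors, which insulin inactivates. It is given from RefSeq (rat genome build GRCr8, chr14:86261027-86261326, plus strand), from 250 bases before to 50 bases after the annotated start, with the match to the FoxO core AAACAA in capitals.
Igfbp1: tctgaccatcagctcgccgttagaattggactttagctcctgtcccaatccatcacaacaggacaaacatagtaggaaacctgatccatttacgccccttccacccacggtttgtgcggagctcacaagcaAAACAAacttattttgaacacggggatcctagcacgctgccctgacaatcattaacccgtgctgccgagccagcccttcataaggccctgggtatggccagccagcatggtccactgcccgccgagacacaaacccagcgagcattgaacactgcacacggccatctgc
The match lay from 119 to 114 bases before the start, and AAACAA, read on both strands, occurs in 20.6% of 33469 rat promoters of this length. Of the 9 members with a RefSeq promoter, 2 held AAACAA: Igfbp1 with 1 match and Igf1 with 3. At least 3 matches occur in 1.12% of promoters, and no difference was detected for Igf1. The Igfbp1 window held no match to the glucocorticoid receptor half-site AGAACA, the hypoxia response core ACGTG or the STAT element TTCNNNGAA. These letters describe the window and are not evidence that a factor was bound there.

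Igfbp3, whose product carries most circulating IGF-1, is the next gene to Igfbp1 on rat chromosome 14 in the RefSeq annotation, with 0 annotated genes between them. Its log2 value ran from 8.37 through a median of 8.68 to 8.91 in treated livers and from 8.35 through 8.73 to 8.96 in vehicle livers, so the ranges lay almost on top of each other. The log2 difference of Igfbp3 was -0.01 ± 0.08 (SE; 95% confidence interval -0.18 to 0.17; limma, adjusted p = 0.978). Taken array by array, the change of Igfbp1 exceeded that of Igfbp3 by 1.84 ± 0.30 on the log2 scale (SE). Differences between a pair of members are given as descriptions, since the pairs were chosen with results known. Permutation tests were run on them, but their p-values are used only below, to show how the Igf1 and Ghr pair depends on the processing.

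Igfbp2, which encodes a binding protein prominent in fetal and fasting liver, was a smaller and less certain rise. Its log2 values were 5.35, 5.97 and 6.83 (lowest, median, highest) in treated livers, against 4.96, 5.37 and 6.11 in vehicle livers. Only 4 of 10 treated livers lay above every vehicle liver, although 9 of 10 lay above the vehicle median. The means were 5.97 ± 0.47 and 5.48 ± 0.36 (SD, n = 10 treated and 12 vehicle), a log2 difference of 0.49 ± 0.16 (SE; limma, adjusted p = 0.0427). Leaving out 1 array at a time ended the Igfbp2 call for 15 arrays, and the highest adjusted p, 0.0879, came without GSK932121A replicate 14. Neither Welch (adjusted p = 0.0965) nor Wilcoxon (0.0794) kept Igfbp2 past the threshold. Its mean signal lay above that of 56.2% of genes.

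Igfbp4 encodes a binding protein that mostly restrains IGF action and is abundant in liver. Its values were 10.75, 11.07 and 11.14 (lowest, median, highest) in treated livers and 10.56, 10.77 and 11.19 in vehicle livers. Of the 10 treated livers 9 lay above the vehicle median, yet none lay above the highest vehicle liver. Treated livers averaged 11.04 ± 0.11 and vehicle livers 10.84 ± 0.19 (SD, n = 10 and 12), and the log2 difference of 0.19 ± 0.07 (SE) did not pass (limma, adjusted p = 0.0837). Replicate 24 was again the low treated liver, at 10.75, and without it the Igfbp4 difference was 0.22 and passed (adjusted p = 0.0348). It also passed without vehicle replicate 4 (0.0302) or 5 (0.0384), with cyclic loess normalisation (0.0317) and when dimmer genes, with a mean under 5, were left out (0.0486).

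The Igfbp1 difference exceeded that of Igfbp2 by 1.35 ± 0.28 and that of Igfbp4 by 1.64 ± 0.26 on the log2 scale (SE). Within the wider family of 7 binding proteins, 2 rose, 1 of them the fragile Igfbp2, and none fell. Of all genes 5.31% were higher and 7.05% lower. The family's median log2 difference was 0.12, against -0.01 over all genes. This median is the value of Igfbp5, a dim gene with means of 4.68 in treated and 4.55 in vehicle livers, and does not show a shift of the family. Igfbp5 (0.12 ± 0.08), Igfbp6 (0.04 ± 0.13) and Igfbp7, a more distant relative with low IGF affinity (-0.07 ± 0.13, SE), did not pass. Igfbp6 was more scattered in treated livers, with an SD of 0.45 against 0.17 in vehicle livers, and 3 treated livers lay above and 3 below the whole vehicle range.

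**Figure D2:**
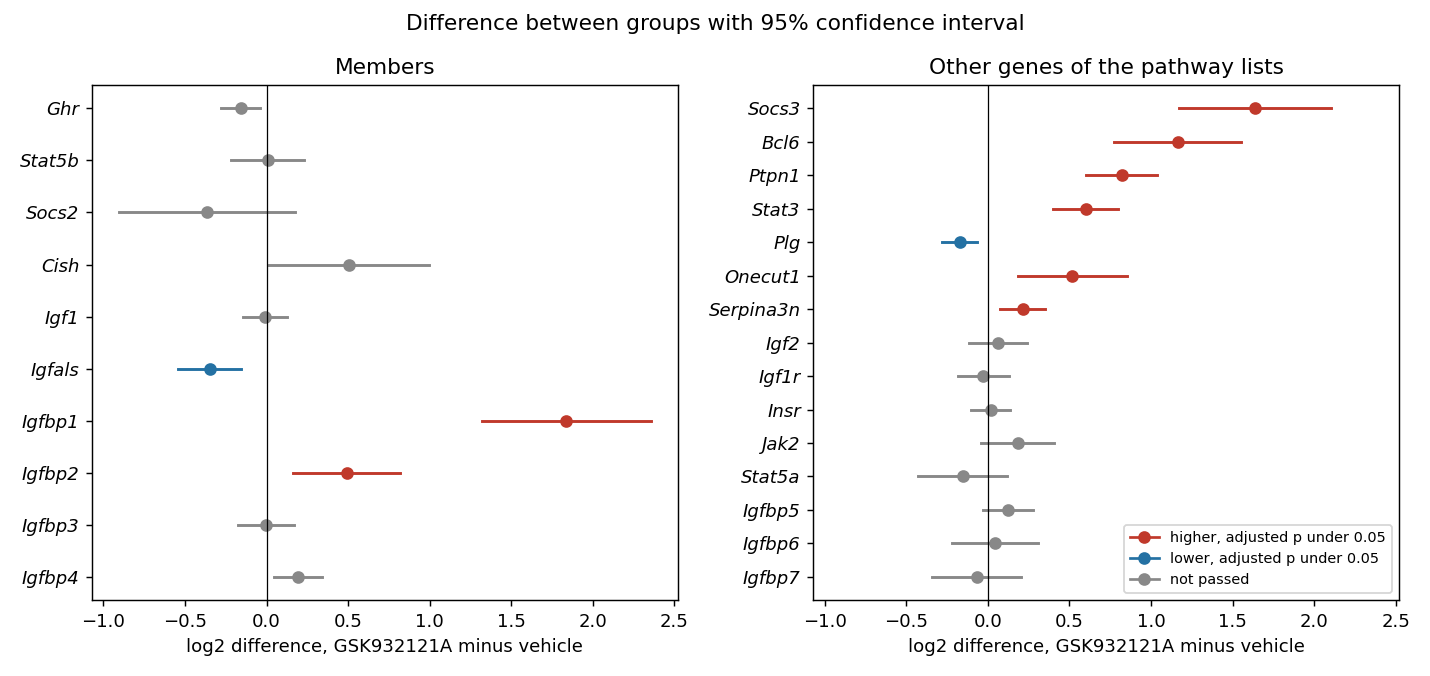
Log2 difference between GSK932121A and vehicle for the 10 genes (left) and for other genes of the pathway lists named by rule (right), with 95% confidence intervals from limma. Red marks genes that were higher and passed, blue those that were lower and passed, grey those that did not pass. Igfbp1 and Socs3 stand furthest to the right, and Igfals and Plg are the genes marked blue.

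Igf1, which encodes the hormone itself and is transcribed chiefly in hepatocytes, gave a narrow result. Its log2 values were 12.13, 12.39 and 12.63 (lowest, median, highest) in treated livers and 12.18, 12.37 and 12.61 in vehicle livers. The groups overlapped almost completely, with 6 treated livers above and 4 below the vehicle median. The means were 12.37 ± 0.15 and 12.38 ± 0.13 (SD, n = 10 treated and 12 vehicle), a log2 difference of -0.01 ± 0.07 (SE; limma, adjusted p = 0.961). The 95% confidence interval of that difference ran from -0.14 to 0.13. The Igf1 signal lay above that of 99.7% of genes, near the upper end of the array's range, where a probe set can respond less than in proportion.

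Igfals, whose product locks IGF-1 and IGFBP-3 into the large circulating complex, was lower. Its log2 values were 8.41, 8.80 and 9.07 (lowest, median, highest) in treated livers, against 8.86, 9.05 and 9.43 in vehicle livers. A total of 6 treated livers lay below every vehicle liver, and 9 lay below the vehicle median. The means were 8.77 ± 0.25 and 9.12 ± 0.20 (SD, n = 10 treated and 12 vehicle), and the log2 value fell by 0.35 ± 0.09 (SE; limma, adjusted p = 0.0123). The call held with each array left out in turn, with adjusted p between 0.00722 and 0.0294. Set against each other array by array, Igfals fell relative to Igf1 by 0.34 ± 0.09 on the log2 scale (SE). The Igf1 signal lay near the upper end of the array's range.

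The receptor Ghr differed little and with little scatter. Its log2 values were 11.58, 11.72 and 11.86 (lowest, median, highest) in treated livers and 11.65, 11.84 and 12.06 in vehicle livers. Of the treated livers 3 lay below every vehicle liver and 9 lay below the vehicle median. The means were 11.72 ± 0.09 and 11.88 ± 0.13 (SD, n = 10 treated and 12 vehicle), a log2 difference of -0.16 ± 0.06 (SE) that did not pass (limma, adjusted p = 0.0828). It did pass with renewed quantile normalisation (adjusted p = 0.0491), with the Welch test (0.0382), when genes with a mean under 5 (0.0432) or under 7 (0.029) were left out, and without vehicle replicate 6 (0.0426), so the Ghr result lies at the threshold.

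Stat5b, the main STAT5 of liver, ran from 7.54 through 8.02 to 8.60 (lowest, median, highest) in treated livers and from 7.58 through 8.03 to 8.40 in vehicle livers. Its difference was 0.01 ± 0.11 (SE; 95% confidence interval -0.22 to 0.23; limma, adjusted p = 0.978). Its relative Stat5a differed by -0.15 ± 0.13 and the kinase gene Jak2 by 0.18 ± 0.11 (SE), and neither passed (adjusted p = 0.536 and 0.328). Phosphorylation of these proteins was not measured.

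Socs2 and Cish, both classic STAT5 target genes and SOCS-family inhibitors of the receptor, varied more between animals than the other members apart from Igfbp1. Socs2 had log2 values of 7.36, 8.04 and 9.65 (lowest, median, highest) in treated livers and 7.68, 8.49 and 9.78 in vehicle livers. The treated livers spanned 4.88-fold and the vehicle livers 4.28-fold, with 2 treated livers, replicates 21 and 24, below every vehicle liver. The Socs2 difference was -0.37 ± 0.26 (SE; 95% confidence interval -0.91 to 0.17; limma, adjusted p = 0.432).

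Cish ran from 6.53 through a median of 7.75 to 8.84 in treated livers and from 6.13 through 7.28 to 7.92 in vehicle livers. Of the treated livers 3, replicates 14, 16 and 22, lay above every vehicle liver, and 3 others lay below the vehicle median. The Cish difference was 0.50 ± 0.24 (SE; 95% confidence interval 0.01 to 1.00) and did not pass (limma, adjusted p = 0.195). The Socs2 change minus the Cish change, taken array by array, was -0.87 ± 0.30 on the log2 scale (SE), and 4 treated livers lay below every vehicle liver in this within-array difference.

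The start region of Cish is shown because it holds more STAT elements than nearly any other promoter of the rat. It is given from RefSeq (GRCr8, chr8:116850719-116851018, plus strand) over the same window of 300 bases, with matches to TTCNNNGAA in capitals.
Cish: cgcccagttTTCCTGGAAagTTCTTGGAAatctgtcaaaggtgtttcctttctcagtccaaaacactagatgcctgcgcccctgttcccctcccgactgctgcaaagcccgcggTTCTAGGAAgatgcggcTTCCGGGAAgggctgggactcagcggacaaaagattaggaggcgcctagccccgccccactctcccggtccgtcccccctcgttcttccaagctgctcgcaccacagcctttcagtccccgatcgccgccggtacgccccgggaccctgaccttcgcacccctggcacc
The 4 matches were at 241 to 233, 230 to 222, 136 to 128 and 119 to 111 bases before the start. At least 1 match was found in 8.87% of 33469 promoters of this length, at least 3 in 8 promoters and at least 4 in 2 promoters, Cish included. None of the other 8 members with a RefSeq promoter held this element in the window, and the promoter of Socs2 was not analysed here. The element reads the same on both strands, and a match is not evidence of binding.

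**Figure D3:**
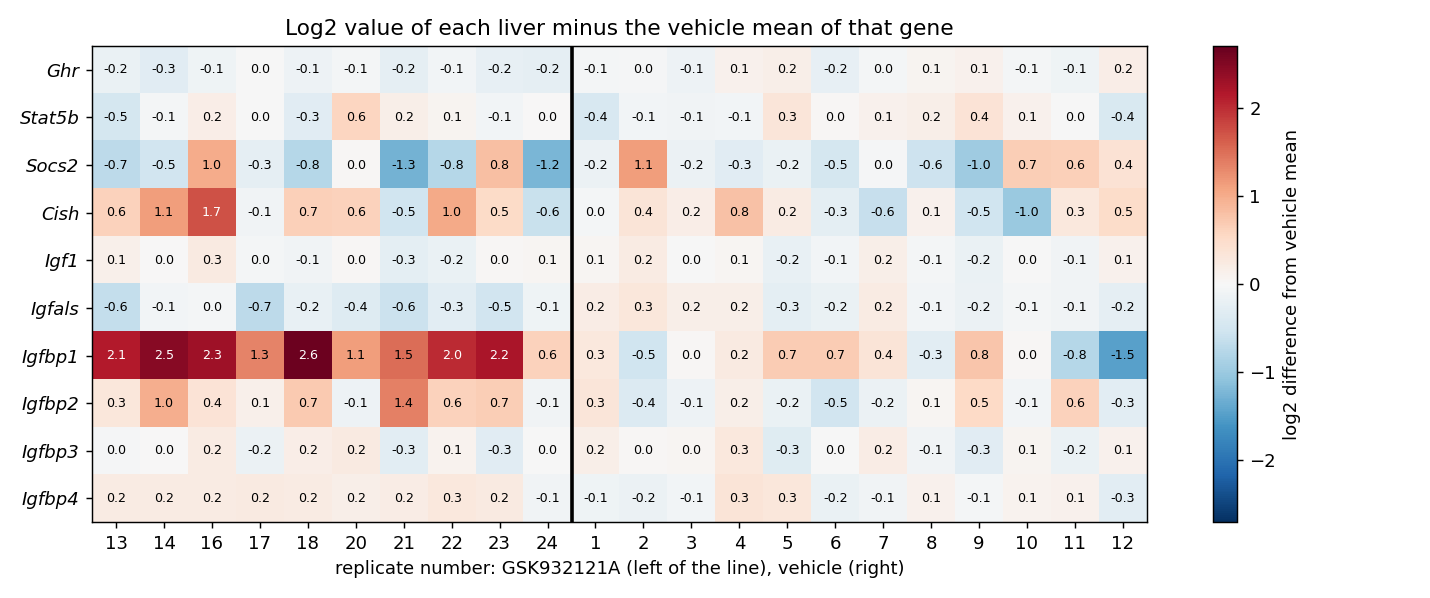
Log2 value of each liver minus the vehicle mean of the same gene, genes in rows and livers in columns by replicate number, GSK932121A left of the line and vehicle right of it. The Igfbp1 row is red in every treated liver and palest in replicate 24, while the Socs2 and Cish rows hold both colours in both groups.

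The members differed widely in their spread within groups. Measured against the 10410 genes whose log2 mean reached 5, the within-group SD of Socs2 (0.69), Igfbp1 (0.66) and Cish (0.62) lay above 99.1%, 98.9% and 98.7% of genes. The SD of Ghr was 0.12, above 5.47% of genes, and that of Igf1 was 0.14. Their signals lay above those of 99.4% and 99.7% of genes, where a probe set can respond less than in proportion. Whether this made their SDs small was not tested. Igfbp2 (0.41) and Stat5b (0.27) lay above 95.2% and 80.9%, Igfals (0.22) and Igfbp3 (0.19) above 66.4% and 50.5%, and Igfbp4 (0.16) above 27.7%.

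Co-variation between animals was examined within each group over all 45 pairs of members, 90 correlations in all, of which 0 passed after adjustment in either group. At an unadjusted permutation p under 0.05 there were 3 pairs among treated livers and 6 among vehicle livers. The strongest was Igf1 with Igfbp3 among the 12 vehicle livers, with Pearson r = 0.80 (permutation p = 0.0017, adjusted p = 0.154) and Spearman rho = 0.81 (p = 0.0024, adjusted p = 0.213). Without the 2 livers farthest from the Igf1 median r was 0.89. Among the 10 treated livers the same pair had r = 0.34 (p = 0.339, adjusted p = 0.785) and rho = 0.15 (p = 0.684, adjusted p = 0.918), and r = -0.32 without the 2 farthest livers.

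Igfbp1 and Cish among treated livers had r = 0.72 (permutation p = 0.0202, adjusted p = 0.364) and rho = 0.73 (p = 0.0195, adjusted p = 0.556), and r was again 0.72 without the 2 farthest livers. Among vehicle livers they had r = -0.44 (p = 0.151, adjusted p = 0.593) and rho = -0.50 (p = 0.104, adjusted p = 0.616), and r = -0.26 without the 2 farthest. The difference between the groups in these correlations was not tested. Igfbp1 and Igfbp4 had r = 0.72 among treated livers (permutation p = 0.0138, adjusted p = 0.364; rho = 0.38, p = 0.28, adjusted p = 0.743), which rested on single livers, since r was -0.01 without the 2 farthest and 0.42 without replicate 24.

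**Figure D4:**
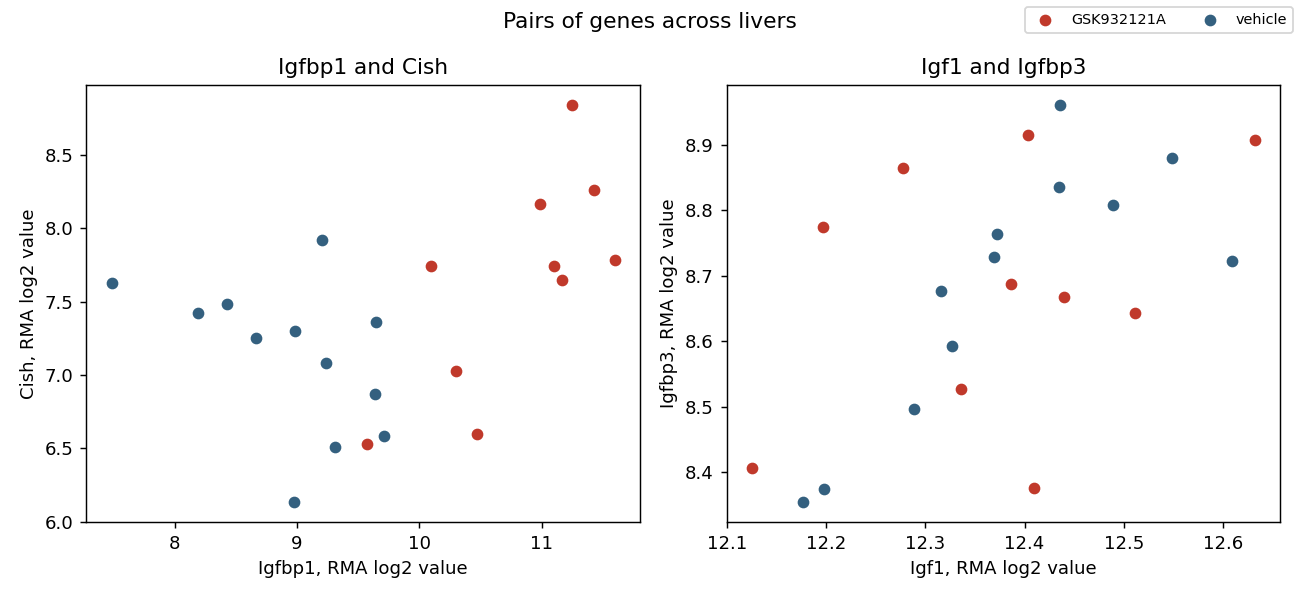
RMA log2 values of Cish against Igfbp1 (left) and of Igfbp3 against Igf1 (right), 1 point per liver, GSK932121A in red and vehicle in blue. In the left plot the treated livers slope upwards and the vehicle livers do not; in the right plot the vehicle livers lie along a line and the treated livers scatter.

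The genes most like each member were sought among the 10410 brighter genes, by Pearson r over the 22 arrays after the mean of each group was subtracted. They are a description, since the highest of many values is always high. For Igfbp1 they were Insig1, a sterol-regulated protein of the endoplasmic reticulum (r = 0.82), Zfp36, the mRNA-destabilising protein tristetraprolin (0.79), and the stress gene Gadd45b (0.78). These genes were themselves higher after GSK932121A, by 2.15-fold, 3.27-fold and 11.9-fold. For Cish they were Gadd45g (r = 0.79), Socs3 (0.77) and the polyamine-acetylating enzyme gene Sat1 (0.76), which were higher by 6.58-fold, 3.11-fold and 2.35-fold.

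The nearest genes of Socs2 were others: S1pr2, a sphingosine-1-phosphate receptor (r = 0.77), Herc4 (0.75) and Fthl17b (0.72), of which Herc4 was itself higher by 1.41-fold and passed (limma, adjusted p = 0.00797). Igf1 ran with Nrep (r = 0.85), the ketone body enzyme gene Bdh1 (0.76) and Rgn, regucalcin (0.76), none of which passed. Igfals ran with Gprc5c (0.76), Hmgn1 (0.75) and Sh2d4a (0.73), of which Gprc5c and Sh2d4a were lower by 1.21-fold and 1.59-fold. Igfbp4 ran with Ube2o (0.86), the prolactin receptor gene Prlr (0.86) and the Wnt co-receptor gene Lrp5 (0.84). For Ghr the genes were Capza2 (0.85), Ergic2 (0.80) and Eif2a (0.78), and for Stat5b Ganab (0.77), Ern1 (0.76) and Ppil1 (0.75). For Igfbp2 they were Pias4 (0.81), Rnf44 (0.77) and the heat shock factor gene Hsf1 (0.70), and for Igfbp3 Nid1, a basement membrane protein gene (0.69), Serpinb6a (0.68) and Shroom4 (0.66). The r over 22 arrays can hide unlike values in the groups, in either direction. Igfals with Gprc5c had r = 0.96 in treated and 0.38 in vehicle livers, and Ghr with Eif2a had 0.56 and 0.86. These contrasts were not tested.

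The wider pathway was described through lists. Among 21 measured genes of growth hormone receptor signalling, members included, 6 rose and none fell, with a median log2 difference of 0.06 against -0.01 over all genes. Beside this and the lists below, 5.31% of all genes were higher and 7.05% lower. Of the 4199 genes with a mean of 7 or more, tested alone, 491 were higher and 726 lower. No list was tested as a set. Socs3, an inhibitor of JAK kinases induced through STAT3 as well as by growth hormone, rose 3.11-fold, with 7.86 ± 0.79 in treated and 6.22 ± 0.36 in vehicle livers (SD, n = 10 and 12; limma, adjusted p = 1.69e-05). Bcl6, a repressor that growth hormone lowers in rodent liver, rose 2.24-fold (adjusted p = 0.00012), with 8 of 10 treated livers above every vehicle liver. Ptpn1, the phosphatase PTP1B that acts on JAK2 and the insulin receptor, rose 1.77-fold (adjusted p = 7.06e-06), and Stat3 rose 1.51-fold (adjusted p = 0.000106), each with 9 of 10 treated livers above every vehicle liver. The remaining rises were the phosphatase gene Ptpn2, by 1.44-fold (limma, adjusted p = 0.00273), and the docking protein gene Irs1, by 1.37-fold (adjusted p = 0.0145). Irs1 was mixed, with 7 treated livers above every vehicle liver and 3 below the vehicle median. Its SD was 0.43 in treated and 0.15 in vehicle livers. Other genes of the same classes did not pass: the SOCS genes Socs1 (0.06 ± 0.10) and Socs6 (0.02 ± 0.07), and the phosphatase genes Ptpn6 (-0.13 ± 0.07) and Ptpn11 (0.06 ± 0.08, log2 difference ± SE).

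Among 6 genes for IGF ligands, receptors and the acid-labile subunit, Igfals was the only one that passed. Igf2 (0.06 ± 0.09), the IGF-1 receptor gene Igf1r (-0.03 ± 0.08) and the insulin receptor gene Insr (0.02 ± 0.06, SE) did not pass, and the first of these, with means of 4.74 in treated and 4.68 in vehicle livers, was at the level of the array medians. Among 9 genes for proteases that cut IGF binding proteins and for their inhibitors, 1 fell and none rose. That gene was Plg, the plasmin precursor, which fell by 0.17 ± 0.05 on the log2 scale (SE; limma, adjusted p = 0.0311), a call that did not hold with cyclic loess (0.104) or without 1 of 4 single arrays (highest adjusted p 0.0584, lacking GSK932121A replicate 13).

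Of 10 measured liver genes known from rodents to be regulated by growth hormone, 2 rose and none fell, with a median difference of 0.01. Cyp3a2 (means of 2.10 in treated and 2.32 in vehicle livers), Mup5 (2.64 and 2.73), Cyp2c11 (3.91 and 4.08) and Cyp2a2 (4.52 and 4.47) lay below the array medians. A fall of these dim genes could hardly show, so the count and the median say little about falls. Onecut1, the hepatocyte transcription factor HNF-6, rose 1.43-fold (limma, adjusted p = 0.0338) and Serpina3n, a serine protease inhibitor, 1.16-fold (adjusted p = 0.0367). Omitting 1 array ended the Onecut1 call in 10 cases (highest adjusted p 0.0699, lacking GSK932121A replicate 13) and the Serpina3n call in 9 (0.0749, lacking GSK932121A replicate 16). Cyp2c12, the cytochrome P450 of female rat liver maintained by the female pattern of growth hormone, had 12.84 ± 0.08 in treated and 12.92 ± 0.07 in vehicle livers and did not pass (adjusted p = 0.384). The Cyp2c12 signal lay above that of 99.9% of genes, near the upper end of the array's range. There a probe set can respond less than in proportion. Over the pathway lists together, 9 of 43 genes that are not members passed, 8 higher and 1 lower. That is 20.9%, against 12.4% of all genes, with 5.31% higher and 7.05% lower. Since brighter genes passed more often (2385 of 10410 with a mean of 5 or more) and the lists mix bright and dim genes, this is not read as an excess.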

How the data were processed

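Liver RNA of 22 rats was measured on Affymetrix whole-transcript arrays. The deposited log2 values were made with RMA (background correction, normalisation between arrays, probe set summary), per the submitters' processing notes; its software is not given in the sources used here. RMA removes shifts common to all genes and compresses dim signals. Precision is limited by how many arrays there are.

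The platform annotation gave a single symbol to 18511 of 36685 probe sets, several to 575 and none to 17599. The highest-mean probe set stood for a gene, which left 18166 genes, and each of the 10 members had 1. Groups came from the sample titles, and no batch is given. Groups were compared in limma 3.58.1 (R 4.3.3) by group alone, with Benjamini-Hochberg adjustment over all genes and a threshold of 0.05. Correlations and pair differences used permutation tests with 100000 resamples, or 10000 in the alternative runs, two-sided (Python 3.11.15, numpy 2.4.6, scipy 1.17.1). The fit was tested on simulated data. Promoters came from RefSeq (GRCr8), for 9 of 10 members.

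Named were all members, the 4 called genes with the largest difference in each pathway list (all of them where 5 or fewer passed), Igf2, Igf1r, Insr, Jak2, Stat5a, Socs3 and the other binding proteins, and for each member the 3 genes most like it. Ptpn2, Irs1, Cyp2c12 and the called cell markers were added after their values were seen. Also named outside this rule were Socs1, Socs6, Ptpn6, Ptpn11, Cyp3a2, Mup5, Cyp2c11 and Cyp2a2. Members, lists, pairs and motifs were chosen with earlier results of these data known. Alternatives were median centring, quantile and cyclic loess normalisation, leaving out genes with a mean under 5 or under 7, averaging probe sets, testing all probe sets, array weights, a variance trend with robust estimation, Welch and Wilcoxon tests, and each array left out in turn.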

Additional observations from a re-analysis of the deposited data

Results flagged for a closer look

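Igfbp4 in GSK932121A replicate 24 stood apart from the other treated livers. Its log2 value was 10.75, while the next lowest treated liver was at 11.00, and the gap took 0.648 of the range of the 10 treated livers. The same liver had the lowest Igfbp1 and Cish values of the treated group. The limit used for this share is one that chance passes in about 5% of groups, and the treated groups of 10 genes were examined.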

How the results depend on the processing

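No paired analysis was possible because the groups share no replicate numbers. Each result was recomputed with 1 choice changed at a time. The differences of Igfbp1 and Igfals kept their direction and their call under each alternative run. No result changed sign while past the threshold. The Igfbp2 difference no longer passed with median centring (0.49, adjusted p = 0.0524), all probe sets (0.0792), the Welch test (0.0965) or the Wilcoxon test (0.0794), and lay between 0.40 and 0.56 with an array left out. The Ghr difference (-0.16) passed with quantile normalisation, both filters and the Welch test, and lay between -0.18 and -0.14 with an array left out. The Igfbp4 difference passed with cyclic loess (0.24) and both filters (0.19), and lay between 0.17 and 0.22. The Igf1 change minus the Ghr change was 0.15 ± 0.08 (SE), with an adjusted permutation p = 0.084 over 7 pairs chosen with results known. It passed with quantile normalisation (0.16), without vehicle replicate 2 and without GSK932121A replicate 22. With an array left out it lay between 0.12 and 0.18, and the Ghr change minus the Stat5b change lay between -0.22 and -0.11. The number of members called was 5 when genes with a mean under 5 were left out and 2 to 4 with an array left out, and that of all genes was 1217 among the 4199 genes with a mean of 7 or more and 1854 to 2386 with an array left out, against 2244. Calls among the binding proteins numbered 1 with median centring, all probe sets, Welch and Wilcoxon, and 1 to 3 with an array left out. Calls among the proteases numbered 0 with cyclic loess, 2 with Wilcoxon and 0 to 2 with an array left out. Calls among the growth hormone-regulated genes numbered 0 with all probe sets, 1 with Welch, 1 with Wilcoxon and 0 to 2 with an array left out. Pairs of members whose correlation passed numbered 0 to 1 with an array left out, the 1 without vehicle replicate 2 or 12. Except where values or fewer genes tested show it, the cause was not tested. Signal over background was not measured here.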
